A study of Mus musculus with 22 samples.

Results

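The mitochondrially encoded transcripts were measured in striatal ribosome pulldowns and in the lysates they came from. They were taken as every gene whose symbol starts with mt-, which gave 37 of the 55341 genes in the count files: 13 mRNAs, 2 ribosomal RNAs and 22 transfer RNAs. The striata came from mice that express an EGFP-tagged copy of the ribosomal protein Rpl10a in medium spiny neurons with the dopamine receptor Drd1 (D1 neurons). All animals of both genotypes carry this tag, and the labels state no age or strain. The mutant is a model of fragile X syndrome, labelled FMRP mutant and, in the sample titles, KO. The wild type had 6 animals (numbered 1, 4, 12, 13, 14 and 20) and the mutant 5 (numbered 2, 3, 9, 10 and 11), and every animal gave an IP library, of RNA bound to tagged ribosomes, and an input library, of the cleared lysate (called Total in the labels). The labels name D1 neurons as the cell type of both kinds of library, but the input holds RNA of the whole striatum, so fewer cells of a type and less RNA per cell cannot be told apart in it.

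The mitochondrial genome is a small circle of DNA inside the organelle. It encodes core subunits of the respiratory chain and of ATP synthase, the RNAs of the mitochondrial ribosome, and a set of tRNAs, all cut from long transcripts of each strand. Its mRNAs are translated inside the organelle on mitochondrial ribosomes. Rpl10a belongs to the cytosolic ribosome, which translates nuclear mRNAs, including those of the other respiratory chain subunits.

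Library totals ran from 9375611 to 82376192 counts in IP and from 25164548 to 43276230 counts in input. Fmr1, the gene of FMRP, lay between 70.1 and 107.9 CPM, which are counts relative to library size scaled by edgeR's TMM method, in wild-type IP and between 8.16 and 11.3 CPM in mutant IP. In input it lay between 59.7 and 72.5 CPM in wild type and between 11.1 and 15.0 CPM in the mutant, so each library matched its label. All 10 D1 markers listed for the check of the pulldown were higher in IP than in input in both genotypes. All 7 tested markers of D2 neurons, the other projection neurons of the striatum, were lower in IP, as were all 10 astrocyte, all 10 oligodendrocyte and all 10 microglia markers. No marker on these lists was at 0 in every IP library. Markers of cortical excitatory neurons set animals 1, 3, 9 and 12 apart. Their summed level was 100.3 to 276.2 CPM in the IP of these animals and at most 18.2 CPM in the others, and 168.3 to 698.3 CPM against at most 136.0 CPM in input. Markers of choroid plexus and ependyma were uneven too. Summed, they ran from 21.6 to 2136 CPM in wild-type input and from 19.7 to 49.5 CPM in mutant input. In IP they ran from 2.46 to 27.3 CPM in wild type and from 1.65 to 3.58 CPM in the mutant.

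The mitochondrial RNAs together took 27.7% to 56.6% of all counts in input and 0.627% to 1.23% in IP. Most of these counts belonged to the rRNAs. They took 31.2% ± 5.07 (SD, n = 6) of the counts in wild-type input and 38.4% ± 9.14 (SD, n = 5) in mutant input, against 0.581% ± 0.0951 and 0.593% ± 0.186 in IP. The mRNAs took 3.18% ± 0.617 (SD, n = 6) and 3.16% ± 0.378 (SD, n = 5) in input, and 0.277% ± 0.0373 and 0.262% ± 0.0524 in IP. The tRNAs took 0.0230% ± 0.00405 (SD, n = 6) and 0.0216% ± 0.00342 (SD, n = 5) in input, and 0.00300% ± 0.000574 and 0.00239% ± 0.000675 in IP. In each of the 3 classes every IP library lay below every input library. The 95% Wilson interval of a class's share in a single library reached at most 1.20% of the share above or below it for rRNA and mRNA and 10.8% for tRNA, which is counting error only and is smaller than the spread between animals.

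**Figure D1:**
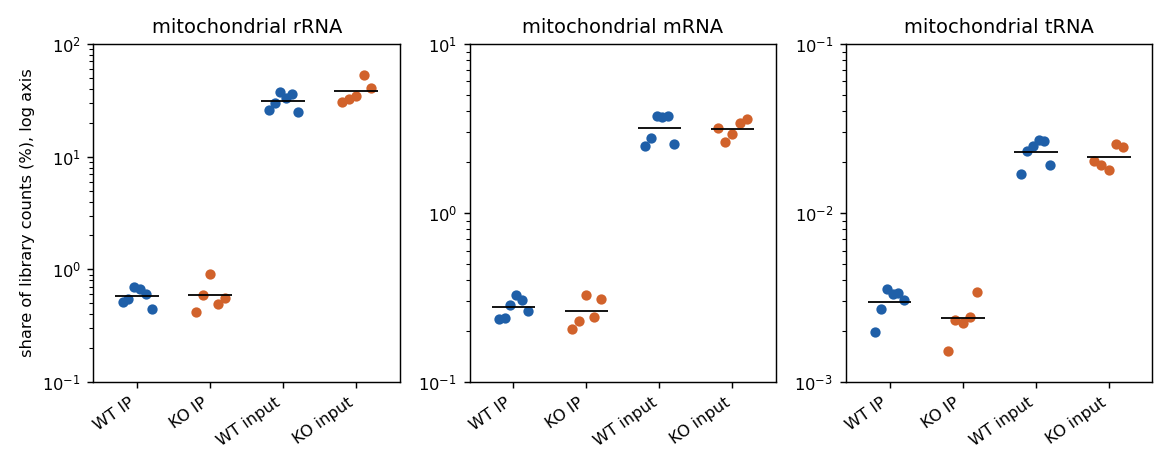
Share of library counts taken by mitochondrial rRNA, mRNA and tRNA, in percent on a log axis, with 1 point per animal and a line at the group mean (6 wild-type and 5 mutant animals). Every IP point lies below every input point: rRNA at 0.420% to 0.904% in IP and 25.1% to 53.2% in input, mRNA at 0.205% to 0.329% and 2.50% to 3.77%, tRNA at 0.00154% to 0.00353% and 0.0171% to 0.0269%.

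The 13 mRNAs were not equally measurable. 7 of them had more than 100 reads in every input library: mt-Nd1, mt-Nd2, mt-Nd4, mt-Nd5 and mt-Nd6, which encode subunits of respiratory complex I, mt-Cytb, the cytochrome b of complex III, and mt-Co1, the catalytic subunit of complex IV. In input the lowest of these counts was 12125 reads for mt-Nd6 and the highest was 493496 reads for mt-Co1. The other 6 were mt-Co2 and mt-Co3 of complex IV, mt-Atp6 and mt-Atp8 of ATP synthase, and mt-Nd3 and mt-Nd4l of complex I. Together they held 0.0832% of the mitochondrial mRNA reads in input. Their read counts in single input libraries were 62 to 631 for mt-Co2, 17 to 2759 for mt-Atp6, 2 to 680 for mt-Atp8, 8 to 89 for mt-Co3, 1 to 33 for mt-Nd4l and 0 to 10 for mt-Nd3.

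These 6 genes lie next to each other on the mitochondrial genome, from mt-Co2 at chrM 7013 to the end of mt-Nd4l at chrM 10173 (GRCm38/mm10, GENCODE vM21 annotation). A stretch of nuclear chromosome 1, on the minus strand, carries annotated copies of the same region in the same order. In that stretch 7 pseudogenes from 24611535 to 24616197 match mt-Co1, mt-Co2, mt-Atp6, mt-Co3, mt-Nd3, mt-Nd4l and mt-Nd4 at 99.7% to 100% identity. The distances between the starts of the 6 copies from Gm28661 to Gm28439 equal those between their mitochondrial genes to within 1 base. The copies' 233 unannotated bases between Gm28661 (mt-Co2) and Gm10925 (mt-Atp6) have the same length as the mitochondrial stretch in which mt-Tk and mt-Atp8 start. The first 60 bases of mt-Co2 and of its copy Gm28661 carry no base that would tell them apart. They are shown with those of mt-Nd3 and its copy Gm28438, and with bases 100 to 159 of mt-Cytb and its copy Gm11410 on chromosome 4. mt-Cytb had 96590 to 239137 reads in single input libraries. Capitals mark the bases that differ between a mitochondrial gene and its copy, and each sequence is given 5′ to 3′ on the gene's own strand, from the GENCODE vM21 transcripts.
mt-Co2, chrM:7013-7072, plus strand: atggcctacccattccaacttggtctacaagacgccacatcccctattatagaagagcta
Gm28661, chr1:24615506-24615565, minus strand: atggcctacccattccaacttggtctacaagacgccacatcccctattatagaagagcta
mt-Nd3, chrM:9459-9518, plus strand: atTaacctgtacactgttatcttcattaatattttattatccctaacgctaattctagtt
Gm28438, chr1:24613060-24613119, minus strand: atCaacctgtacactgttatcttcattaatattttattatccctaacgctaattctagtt
mt-Cytb, chrM:14244-14303, plus strand: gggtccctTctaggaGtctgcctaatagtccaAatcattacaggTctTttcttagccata
Gm11410, chr4:80004088-80004147, plus strand: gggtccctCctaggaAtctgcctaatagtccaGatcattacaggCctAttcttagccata

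The 60 bases of mt-Co2 hold 0 differences from the copy, those of mt-Nd3 hold 1 and those of mt-Cytb hold 5. Per the labels' protocols the reads were 50 cycles long, so the mitochondrial genes were divided into windows of 50 bases and each window was looked up in all annotated nuclear transcripts. The reads were paired-end, and the windows take no account of a read's mate. Of the windows of mt-Co2, 100% occurred unchanged in a nuclear transcript. The share was 99.9% for mt-Co3, 99.5% for mt-Atp6, 98.8% for mt-Nd4l and 98.0% for mt-Nd3. It was 0% for mt-Atp8, whose longest match, to the nuclear transcript Gm28925, covered 167 of its 204 bases at 81.4% identity and whose last 43 bases overlap mt-Atp6. Among the 7 mRNAs with more reads the share was 62.2% for mt-Nd4, 51.1% for mt-Co1, 8.19% for mt-Nd2, 7.61% for mt-Nd5 and 0% for mt-Nd1, mt-Nd6 and mt-Cytb. How the authors treated reads that match several places is not given in the sources used here, and the part of the copies in the low counts was not tested.

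The copies themselves had few reads. In all, 17 annotated nuclear genes matched a mitochondrial gene over at least 100 bases at 90% identity or more, and together they took 0.00631% to 0.0152% of the counts in input and 0.000467% to 0.000956% in IP. The copy with the most reads over the 22 libraries was Gm28438, with 6793 reads, and its count in input was 271 to 962 reads where mt-Nd3 had 0 to 10. Gm28661 had 131 to 891 reads in input and Gm28437, the copy of mt-Co3, had 158 to 1370. Gm29216, the copy of the end of mt-Co1, had 167 to 772. With the reads of their copies added, the 6 genes held 0.332% of the mitochondrial mRNA reads in input, so the addition did not bring them near the level of the 7 others. Levels and ratios of these 6 genes are therefore uncertain, and those of mt-Co1 and mt-Nd4 may miss reads. The 7 others are called well-measured below for their read counts only.

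**Figure D2:**
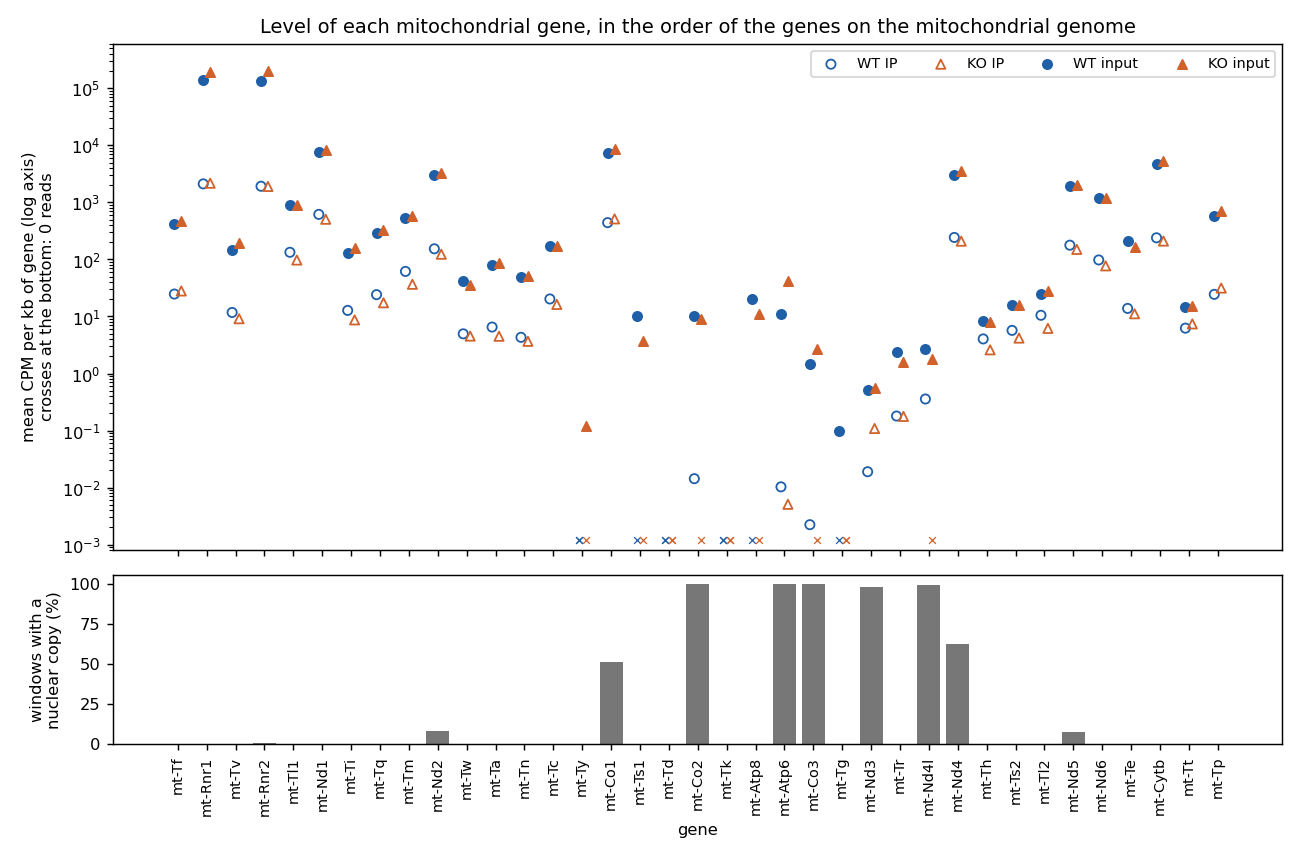
Upper panel: mean CPM per kb of gene for each of the 37 genes, in genome order, on a log axis (filled symbols input, open symbols IP, circles wild type with n = 6, triangles mutant with n = 5, crosses 0 reads). Lower panel: percent of each gene's 50-base windows found unchanged in an annotated nuclear transcript; the 6 mRNAs with few reads sit side by side, and 5 of them have 98.0% to 100% of windows with a nuclear copy.

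The order of the 7 mRNAs by level was nearly the same in all input libraries but not in IP. Per kb of windows without a nuclear copy, the mean level in wild-type input (n = 6) was 15439 CPM per kb for mt-Co1, 8277 for mt-Nd4, 7965 for mt-Nd1, 4871 for mt-Cytb, 3449 for mt-Nd2, 2160 for mt-Nd5 and 1338 for mt-Nd6. The wild-type ranges of each pair of neighbours in that order overlapped, for example 5962 to 10227 CPM per kb for mt-Nd1 and 3550 to 6252 for mt-Cytb. Within a library the order was steadier: mt-Co1 exceeded mt-Nd4, mt-Nd1 exceeded mt-Cytb, mt-Cytb exceeded mt-Nd2, mt-Nd2 exceeded mt-Nd5 and mt-Nd5 exceeded mt-Nd6 in 11 of 11 input libraries, and mt-Nd4 exceeded mt-Nd1 in 9. In IP mt-Nd4 exceeded mt-Nd1 in 5 of 11 libraries and mt-Nd2 exceeded mt-Nd5 in 1 of 11, and the other 4 relations held in 11 of 11. The places of mt-Co1 and mt-Nd4 depend on leaving out the windows that have a nuclear copy. Per kb of the whole gene, wild-type input levels were 7557 CPM per kb for mt-Nd1, 7305 for mt-Co1 and 3015 for mt-Nd4. mt-Nd6 is the only mRNA on the minus strand, and the library kit does not mark the strand, so its reads cannot be told apart from transcripts of the opposite strand.

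The rRNAs stood well above the mRNAs. mt-Rnr1, the RNA of the small mitochondrial ribosomal subunit (chrM 70 to 1024), and mt-Rnr2, that of the large subunit (chrM 1094 to 2675), had wild-type input levels of 150576 and 138615 CPM per kb of windows without a nuclear copy. mt-Rnr1 took 9.70%, 12.3% and 15.0% of wild-type input counts as the lowest, median and highest of 6 libraries, and mt-Rnr2 took 15.4%, 18.7% and 23.5%. In wild-type IP the same values were 0.171%, 0.226% and 0.280% for mt-Rnr1 and 0.278%, 0.349% and 0.418% for mt-Rnr2. The 2 rRNAs were close to each other per kb, and neither group of IP libraries came near its input.

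The first question was which mitochondrial RNAs came through the pulldown, and to what extent. All 9 well-measured rRNAs and mRNAs were far lower in IP than in input in both genotypes, the rRNAs more so than the mRNAs. By edgeR's quasi-likelihood test, mt-Rnr1 changed by -6.08 ± 0.31 (SE) on the log2 scale in the wild type and -6.46 ± 0.35 in the mutant, which is 67.5-fold and 88.3-fold lower in IP. mt-Rnr2 changed by -6.11 ± 0.29 and -6.71 ± 0.32, or 69.2-fold and 104.6-fold lower. Adjusted p-values for both rRNAs were 1.5e-11 or smaller in both genotypes. Without the animals with high cortical markers (1, 3, 9 and 12), the changes were -6.12 and -6.94 for mt-Rnr1 and -6.08 and -7.20 for mt-Rnr2 in wild type and mutant. In the same setting mt-Nd5, which changed least among the well-measured mRNAs, had -3.42 and -3.93.

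The well-measured mRNAs of complex I fell by less than the rRNAs. mt-Nd5 had 3542 CPM ± 772 (SD, n = 6) in wild-type input and 324.6 CPM ± 20.7 in wild-type IP. Its change was the smallest of the 7 mRNAs, at -3.45 ± 0.15 (SE) in the wild type and -3.74 ± 0.16 in the mutant, or 10.9-fold and 13.4-fold lower. mt-Nd1 changed by -3.61 ± 0.21 and -4.04 ± 0.23, mt-Nd4 by -3.63 ± 0.22 and -4.10 ± 0.24, and mt-Nd6 by -3.63 ± 0.19 and -3.95 ± 0.22. mt-Nd2 fell furthest of these 5, with -4.30 ± 0.23 and -4.76 ± 0.25. In none of these genes did the IP and input libraries overlap. How many of all genes tested were separated in this way was not counted.

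The subunits of the other complexes lay in the same range. mt-Cytb had 5334 CPM ± 1321 (SD, n = 6) in wild-type input and 274.2 CPM ± 38.5 in wild-type IP, and changed by -4.28 ± 0.20 (SE) in the wild type and -4.66 ± 0.23 in the mutant. mt-Co1 changed by -4.05 ± 0.26 and -4.05 ± 0.29. The largest edgeR adjusted p among the 7 mRNAs was 8.3e-10, for mt-Co1 in the mutant.

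For the 6 mRNAs with few reads the ratio rests on single reads in IP. mt-Atp8 had 776 reads in wild-type input and 0 in wild-type IP, which makes it at least 356.7-fold lower when the limit is set at 3 reads over the group, and 371 and 0 reads in the mutant, at least 136.2-fold. mt-Co2 had 1188 reads in wild-type input and 2 in IP, a ratio of 819.1 with a 95% counting interval of 226.8 to 6764, and 902 and 0 in the mutant, at least 331.2-fold. mt-Atp6 had 1225 and 4 reads in wild type (422.3, interval 164.9 to 1550) and 4276 and 1 in the mutant (4710, interval 845.3 to 186028). mt-Co3 had 194 and 1 (267.5, interval 48.0 to 10567) in wild type and 248 and 0 in the mutant, at least 91.1-fold. mt-Nd4l had 128 and 19 (9.29, interval 5.95 to 15.4) and, in the mutant, 71 and 0, at least 26.1-fold. mt-Nd3 had 29 and 2 reads in wild type and 24 and 4 in the mutant, where the ratio of 6.61 had an interval of 2.58 to 24.3. The intervals cover counting error in IP only.

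Several of these ratios rest on 1 library. Animal 12 held 680 of the 776 wild-type input reads of mt-Atp8, and without it the limit was at least 52.2-fold. Animal 11 held 291 of the 371 in the mutant, and without it the limit was at least 34.6-fold. For mt-Atp6 in the mutant, animal 11 held 2759 of the 4276 input reads, and the ratio was 1969 without it and at least 1113 without animal 2, which held the IP read; in wild type it was 180.7 without animal 13. For mt-Co2 in wild type the ratio was 529.2 without animal 1, 454.3 without 12, 1415 without 13 and 1392 without 14, and in the mutant the limit was at least 219.8-fold without animal 11. For mt-Co3 the ratio in wild type was 173.0 without animal 13 and at least 57.7 without animal 1, which held the IP read, and the limit in the mutant was at least 51.97-fold without animal 10.

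Adding the reads of nuclear copies moved these ratios by more than 1.5 times for most of the 6 genes. With them, the edgeR change in wild type was -5.92 ± 0.38 (SE) for mt-Co2, -6.19 ± 0.62 for mt-Co3 and -5.00 ± 0.69 for mt-Atp6, and -2.82 ± 0.33 for mt-Nd4l and -3.32 ± 0.30 for mt-Nd3. No annotated copy of mt-Atp8 met the limit of 100 bases at 90% identity, so none was added. Without added reads, limma-voom did not call mt-Atp6 (adjusted p = 0.174 in wild type and 0.125 in the mutant), and edgeR did not call mt-Atp8 in the mutant without animal 2 (adjusted p = 0.0593) or without animal 11 (0.0505).

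The tRNAs are short and heavily modified, and the 22 of them had few reads. The 3 with the most reads were mt-Tl1 (leucine), mt-Tp (proline) and mt-Tm (methionine), whose sequences from the GENCODE vM21 transcripts show how close their length is to that of a read; none of their letters is marked.
mt-Tl1, chrM:2676-2750, plus strand: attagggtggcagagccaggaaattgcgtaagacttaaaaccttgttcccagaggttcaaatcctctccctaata
mt-Tp, chrM:15356-15422, minus strand: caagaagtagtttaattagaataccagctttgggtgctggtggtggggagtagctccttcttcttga
mt-Tm, chrM:3845-3913, plus strand: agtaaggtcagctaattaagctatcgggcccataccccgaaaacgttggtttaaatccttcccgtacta

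mt-Tl1 lies directly between mt-Rnr2 and mt-Nd1 and had 1186 to 2470 reads in wild-type input and up to 626 in wild-type IP. It changed by -2.78 ± 0.23 (SE) on the log2 scale in the wild type and -3.25 ± 0.26 in the mutant, so it fell less than every well-measured mRNA. mt-Tm changed by -3.18 ± 0.27 and -4.00 ± 0.31. mt-Tp, on the minus strand, changed by -4.57 ± 0.22 and -4.52 ± 0.24, more than most mRNAs; differences between genes were not tested. The adjusted p of these 3 tRNAs in edgeR was 1.5e-09 or smaller in both genotypes.

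Of the other tRNAs, 2 (mt-Td, aspartate, and mt-Tk, lysine) had 0 reads in all 22 libraries. With 3 reads as the limit that a count of 0 allows, this permits up to 0.00848 CPM over all input counts and up to 0.00900 CPM over all IP counts, both from plain library totals without TMM scaling and for counting error only. mt-Tg and mt-Ty had at most 1 read in any library, mt-Tr at most 9, and mt-Ts1 at most 47 in input and 0 in IP. mt-Tk, mt-Tg and mt-Tr start in gaps between mRNA genes that the chromosome 1 stretch repeats at the same length to within 1 base. In the copy these gaps hold 233, 69 and 74 bases without an annotated gene. The part of that stretch in the low tRNA counts was not tested. The tested tRNAs spanned log2 changes of -4.57 to -1.05 in wild type and -4.52 to -1.08 in the mutant. mt-Th, at -1.05 ± 0.58 (SE), did not pass the edgeR test in wild type (adjusted p = 0.140), and mt-Tt, at -1.08 ± 0.51, did not in the mutant (adjusted p = 0.0856).

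Of the 37 members, 30 passed the filter on low counts over all 22 libraries, and 29 of the 30 were called lower in IP in each genotype, none higher. Among all 17311 genes tested, 27.8% were called lower in wild type and 26.4% in the mutant (49.6% and 47.3% in either direction), and the median gene changed by -0.11 in both. 8 of the 30 (mt-Atp6, mt-Atp8, mt-Co2, mt-Co3, mt-Nd4l, mt-Th, mt-Tn and mt-Ts2) did not pass the same filter within IP alone. They entered through their input reads, a choice that favours genes lower in IP, so the count of called members adds nothing to their own values. Of these 8, mt-Th was the one not called in wild type.

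**Figure D3:**
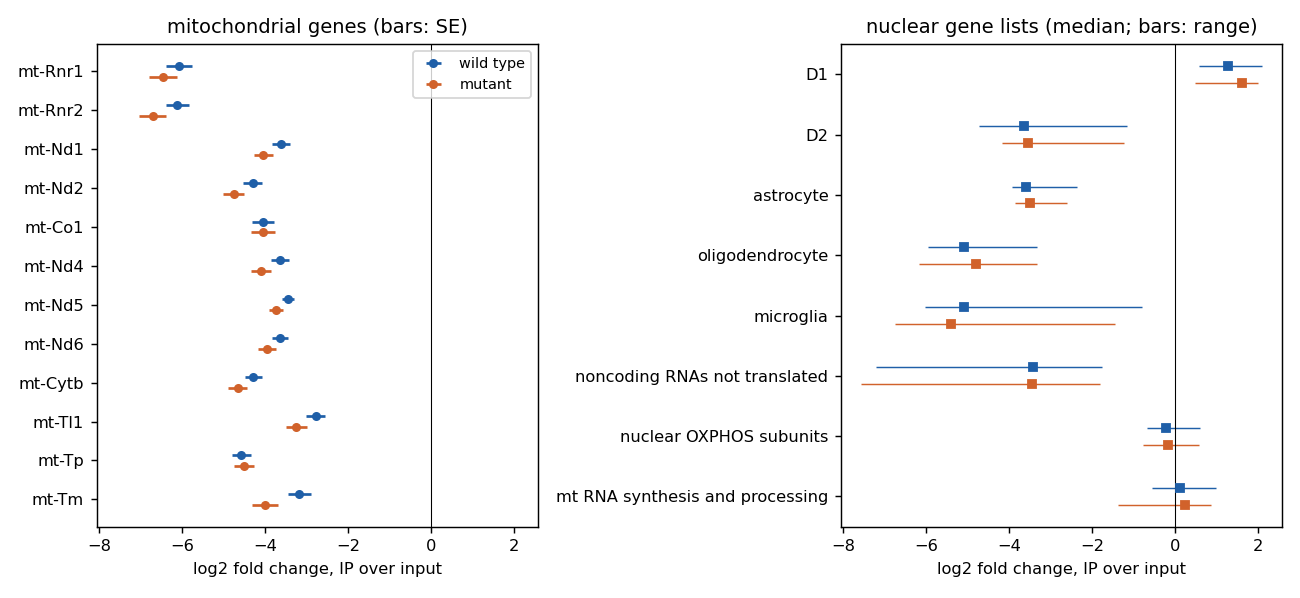
Log2 fold change of IP over input from the fit over all 22 libraries, wild type and mutant side by side. Left, the rRNAs, the 7 well-measured mRNAs and 3 tRNAs with their SE: the rRNAs lie at -6.71 to -6.08, the mRNAs at -4.76 to -3.45 and the tRNAs at -4.57 to -2.78. Right, the median of nuclear gene lists with the range over their tested members: the D1 list is above 0, the lists of nuclear respiratory subunits and of mitochondrial RNA factors lie near 0, and all other lists shown are below 0.

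Nuclear genes that work with the mitochondrial genome changed far less. The subunits of the respiratory chain and ATP synthase that nuclear genes encode had a median change of -0.22 in wild type and -0.18 in the mutant over 77 tested members. Of these, 6 were called higher and 36 lower in wild type, and 6 higher and 28 lower in the mutant. Over all genes tested, 21.8% were called higher in wild type and 20.9% in the mutant, and 27.8% and 26.4% lower, so more of this list was called lower, and less of it higher, than of all genes. Atp5a1, the alpha subunit of ATP synthase, rose by 0.60 ± 0.05 (SE) in the wild type and 0.57 ± 0.05 in the mutant. Ndufs1, of complex I, rose by 0.51 ± 0.06 and 0.54 ± 0.07, whereas Atp5j, a peripheral stalk subunit of ATP synthase, changed by -0.63 ± 0.07 and -0.52 ± 0.07 and Ndufb9, of complex I, by -0.65 ± 0.09 and -0.61 ± 0.09.

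The second nuclear list held 46 genes for the synthesis, cutting, modification and decay of mitochondrial RNA. Its median was 0.12 in wild-type animals, where 10 members were called higher and 1 lower, and 0.24 in mutant animals, where 10 were higher and 3 lower. The share called higher was thus close to the 21.8% and 20.9% of all genes, and the share called lower was below the 27.8% and 26.4%. Lrpprc, a protein that stabilises mitochondrial mRNAs, rose by 0.98 ± 0.08 (SE) in the wild type and 0.88 ± 0.08 in the mutant. Dhx30, an RNA helicase, rose by 0.71 ± 0.10 and 0.63 ± 0.11, and Grsf1, an RNA-binding protein of mitochondrial RNA granules, by 0.38 ± 0.06 and 0.42 ± 0.07. Ssbp1, which binds single-stranded mitochondrial DNA, was lower in wild type, at -0.57 ± 0.12. Hsd17b10, a subunit of mitochondrial RNase P, was lower in the mutant, at -0.66 ± 0.16.

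Noncoding RNAs that cytosolic ribosomes do not translate were listed for comparison. Their median was -3.43 in wild-type and -3.46 in mutant animals, and 11 of 11 tested members were called lower in both. Bc1, a short neuronal RNA, changed by -7.22 ± 0.21 (SE) in the wild type and -7.57 ± 0.24 in the mutant, and Rn7sk, a nuclear regulator of transcription elongation, by -6.74 ± 0.19 and -6.70 ± 0.21. The long noncoding RNAs Meg3, at -2.67 ± 0.12 in wild type, and Rian, at -1.77 ± 0.08, fell less. The mitochondrial rRNAs thus lay close to Rn7sk, and the 7 well-measured mitochondrial mRNAs lay within the range of this list. Medians of markers of cells without the tag were -3.65 in wild type for D2 neurons, -3.58 for astrocytes, -5.09 for oligodendrocytes and -5.09 for microglia. The other marker lists had wild-type medians of -4.42 for interneurons, -3.36 for choroid plexus and ependyma and -2.42 for endothelial cells. The list of cortical excitatory neurons stood apart, at -0.56, with 1 of 10 markers called lower. How much of the mitochondrial RNA left in IP came from cells without the tag, from D1 neurons or from unbound RNA was not tested.

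The loss differed by class within each animal. Ratios of reads within a library do not depend on the scaling between libraries. In these ratios the mRNA reads are those of the 7 well-measured mRNAs, so the 6 with few reads are left out. mt-Co1 and mt-Nd4 may also miss reads, so the balance of rRNA to mRNA within a library is uncertain. In input, rRNA reads outnumbered mRNA reads 8.95 to 10.6 times in the 6 wild-type animals (median 9.82) and 9.58, 12.4, 11.7, 15.6 and 11.4 times in mutant animals 2, 3, 9, 10 and 11. In IP the ratio was 1.70 to 2.43 in wild type (median 2.12) and 2.05, 2.58, 2.78, 2.04 and 1.79 in the same mutant animals. It was therefore lower in IP in 11 of 11 animals, and the highest IP ratio lay below the lowest input ratio. Per animal, the log2 ratio of TMM-scaled IP to input was -7.71 to -5.69 for rRNA, -4.78 to -3.44 for mRNA and -4.37 to -2.80 for tRNA. From plain shares of library counts, which carry no such scaling, it was -6.76 to -5.25, -3.96 to -3.18 and -3.73 to -2.64. mRNA reads per tRNA read were 119.1 to 164.8 in input and 80.8 to 145.7 in IP.

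The 2 rRNAs kept nearly the same proportion. mt-Rnr1 had 0.616 to 0.710 reads per mt-Rnr2 read in the 11 IP libraries and 0.532 to 0.767 in the 11 input libraries, and the ranges overlapped. The log2 ratio was higher in IP than in input by 0.13 ± 0.16 (SD, n = 11), made up of a wild-type mean of 0.04 ± 0.16 (SD, n = 6) and a mutant mean of 0.25 ± 0.07 (SD, n = 5); the difference between genotypes was not tested. It was higher in 8 of 11 animals: in all 5 mutant animals and in wild-type animals 1, 4 and 12, but not in 13, 14 and 20. A 2-sided exact sign-flip permutation test over the 11 animals gave p = 0.0273. By the same exact test the call was lost without animal 2 (p = 0.0547) and without animal 3, 10, 11 or 12 (p = 0.0508 each), and without animals 1, 3, 9 and 12 the difference was 0.10 (p = 0.234).

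Among the 7 mRNAs the make-up of the reads shifted between input and IP. mt-Nd5 made up 10.1% ± 0.607 (SD, n = 6) of the reads of these 7 in wild-type input and 13.6% ± 1.29 in wild-type IP. In the mutant it made up 9.29% ± 0.543 (SD, n = 5) in input and 12.3% ± 0.783 in IP. Its share was higher in IP in 11 of 11 animals. mt-Cytb went the other way, from 15.2% ± 0.344 to 11.4% ± 0.810 in wild type and from 15.2% ± 0.470 to 10.8% ± 1.02 in the mutant, lower in IP in 11 of 11 animals. mt-Nd2 was also lower in IP in 11 of 11 animals, by 2.57 percentage points ± 0.731 (SD, n = 11). mt-Nd1, mt-Nd4 and mt-Nd6 were each higher in IP in 9 of 11 animals.

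The share of mt-Co1 was the least uniform in direction. It made up 31.7% ± 1.43 (SD, n = 6) of the reads of the 7 mRNAs in wild-type input and 28.1% ± 3.59 in wild-type IP. In the mutant it made up 33.1% ± 1.06 (SD, n = 5) in input and 34.9% ± 6.97 in IP. Because 51.1% of its windows have a nuclear copy, mt-Co1 may miss reads in these shares and in the ratio below. The share was lower in IP in 7 animals and higher in 4. mt-Co1 had 1.37 to 1.80 reads per mt-Nd1 read in input. In IP this ratio was 0.905, 1.17 and 1.34 as the lowest, median and highest of the 6 wild-type animals, and 1.16, 2.05, 2.39, 1.62 and 1.13 in mutant animals 2, 3, 9, 10 and 11. Mutant animals 3, 9 and 10 thus lay above every wild-type IP library, and 2 and 11 lay among them. Animals 3 and 9 are those with high cortical markers, as are wild-type animals 1 and 12, whose ratios were 1.34 and 1.12; the part of cortical tissue in this ratio was not tested.

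**Figure D4:**
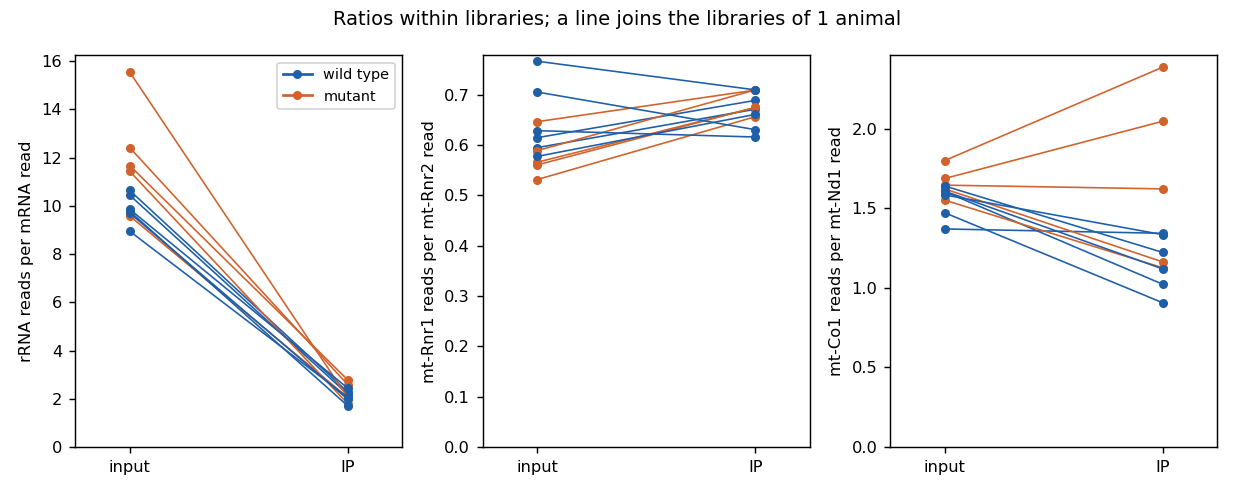
Ratios of reads within a library, with a line joining the input and IP libraries of 1 animal (6 wild-type, 5 mutant). The ratio of rRNA to the 7 well-measured mRNAs drops from 8.95 to 15.6 in input to 1.70 to 2.78 in IP in every animal. mt-Rnr1 per mt-Rnr2 stays between 0.532 and 0.767, and mt-Co1 per mt-Nd1 spreads from 1.37 to 1.80 in input to 0.905 to 2.39 in IP.

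The second question was whether any of these RNAs differed between mutant and wild type in the IP libraries or in the lysate. No member passed the edgeR test in either. In IP, 0 of 22 tested members were called, where 0.0553% of all 14456 genes tested were, and 5 had an unadjusted p under 0.05. In input, 0 of 30 were called, where 0.0183% of 16429 genes were, and 1 had an unadjusted p under 0.05. DESeq2 also called 0 members in IP and in input, with 7 and 1 members at an unadjusted p under 0.05, and limma-voom called 0, with 2 and 0. How many of all genes tested reached that unadjusted threshold was not counted, here or below, so these numbers of members stand without a background.

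The values with the smallest p in IP were all lower in the mutant. mt-Nd5 lay at 294.8, 322.4 and 355.9 CPM as the lowest, median and highest of 6 wild-type IP libraries and at 227.8, 250.4, 320.8, 263.3 and 306.9 CPM in mutant animals 2, 3, 9, 10 and 11. The groups overlapped, with mutant animals 9 and 11 within the wild-type range. Its edgeR change was -0.24 ± 0.08 (SE), adjusted p = 0.517, and -0.31 ± 0.10 without animals 1, 3, 9 and 12 (adjusted p = 0.418). mt-Tm lay at 2.33, 4.27 and 7.23 CPM in wild type and at 1.61, 2.57, 2.23, 2.87 and 3.39 CPM in the mutant animals, a change of -0.74 ± 0.32 (adjusted p = 0.617 in edgeR). mt-Nd2 changed by -0.31 ± 0.14 (adjusted p = 0.648 in edgeR). Of the 7 well-measured mRNAs, 6 had a log2 change below 0 in IP, between -0.34 and -0.18, and mt-Co1 had 0.23 ± 0.23 (SE). In IP, 71 of 77 nuclear subunits of the same complexes had a change above 0, with a median of 0.13 and 0 called. The median of all genes in IP was 0.0041. In input, 66 of these 77 were also above 0 (median 0.10), as were 6 of the 7 well-measured mitochondrial mRNAs (median 0.14). The share of all genes above 0 was not counted, and the difference between the 2 sets was not tested.

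In input the rRNAs had the largest shift of the abundant members. mt-Rnr2 took 15.4%, 18.7% and 23.5% of counts as the lowest, median and highest of 6 wild-type libraries and 19.96%, 20.9%, 20.9%, 33.5% and 26.2% in mutant animals 2, 3, 9, 10 and 11. The groups overlapped: mutant animals 10 and 11 lay above every wild-type library and the others within the wild-type range. The means were 18.9% ± 3.04 (SD, n = 6) and 24.3% ± 5.70 (SD, n = 5), and a 2-sided exact permutation test over all divisions of the animals gave p = 0.0649 (0.260 adjusted over the 4 tests of the 2 rRNAs in both assays). Without animal 10, the library with the highest share, the difference of 5.36 percentage points was 3.06, and without animals 1, 3, 9 and 12 it was 8.07 (exact permutation p = 0.0571, adjusted 0.229). mt-Rnr1 took 12.3% ± 2.32 and 14.1% ± 3.52 of counts (exact permutation p = 0.348, adjusted 0.697), and that difference of 1.81 percentage points was 0.399 without animal 10. As a percentage of the counts outside both rRNAs, the difference was 13.6 for mt-Rnr2 and 6.00 for mt-Rnr1. On the log2 scale, which is relative to the other genes, mt-Rnr2 differed by 0.58 ± 0.26 (SE) between mutant and wild type in edgeR (adjusted p = 0.736).

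In IP the rRNA shares were closer. mt-Rnr1 took 0.232% ± 0.0415 (SD, n = 6) in the wild type and 0.242% ± 0.0794 (SD, n = 5) in mutants (2-sided exact permutation p = 0.827), and mt-Rnr2 took 0.349% ± 0.0545 and 0.351% ± 0.107 (p = 0.963). Mutant animal 9, with high cortical markers, had the highest share of both. Without it the mutant mean fell below the wild-type mean for both, with differences of -0.0236 percentage points (exact permutation p = 0.362) for mt-Rnr1 and -0.0423 (p = 0.229) for mt-Rnr2.

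Beside mt-Rnr2, the smallest p-values in input were those of mt-Te and mt-Atp6. mt-Te, the glutamate tRNA, had 14.7 CPM ± 2.99 (SD, n = 6) in wild-type input and 11.6 CPM ± 2.05 (SD, n = 5) in mutant input, a change of -0.36 ± 0.17 (SE) with adjusted p = 0.730 in edgeR. mt-Atp6 differed by 1.90 ± 1.21 (adjusted p = 0.827 in edgeR), and its level ran from 0.707 to 27.1 CPM in wild type and from 0.578 to 80.4 CPM in the mutant. That difference was 1.02 without mutant animal 11, 2.94 without wild-type animal 13, 2.56 without animals 1, 3, 9 and 12, and 1.08 with the reads of nuclear copies added. The spread of mt-Atp6 within each genotype was thus far larger than for the 7 well-measured mRNAs, whose highest and lowest input shares differed by at most 1.68 times.

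**Figure D5:**
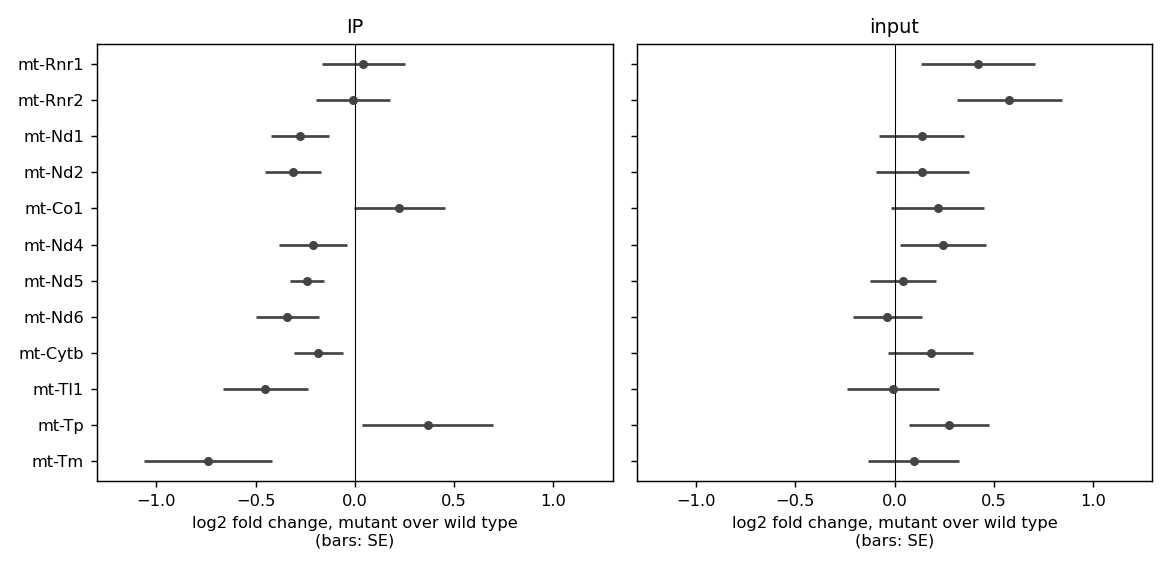
Log2 fold change of mutant (n = 5) over wild type (n = 6) with its SE, in IP and in input, for the rRNAs, the 7 well-measured mRNAs and 3 tRNAs. No gene passed the test in either panel; in input mt-Rnr2 lies at 0.58 and mt-Rnr1 at 0.42, and in IP mt-Tm lies at -0.74.

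The third comparison asked whether the pulldown lost these RNAs to a different extent in the mutant. None of 30 tested members passed the edgeR test of the genotype by assay interaction, and 0% of all 17311 genes did. DESeq2 and limma-voom called 0 members too. At an unadjusted p under 0.05 there were 2 members in edgeR, 2 in DESeq2 and 0 in limma-voom. All 7 well-measured mRNAs had an interaction below 0, from -0.47 to -0.01, with a median of -0.38 where the median of all genes was 0.00. They come from the same libraries, so they are not 7 separate observations. The share of all genes below 0 was not counted, and the 7 as a set were not tested. The smallest p-values were those of mt-Nd4l (-4.22 ± 1.50, SE), mt-Tm (-0.83 ± 0.39) and mt-Ti (-0.84 ± 0.47), all with adjusted p = 1.00 in edgeR. mt-Nd4l had 0 reads in every mutant IP library, and its interaction was -0.73 with the reads of its nuclear copy added. With the animal as a block, which pairs the IP and the input of 1 lysate, 0 members were called. In that fit 10 members had an unadjusted p under 0.05, again without a count over all genes.

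In the authors' deposited tables for mutant and wild type, 0 members had an adjusted p under 0.05. An adjusted p was given for 11 of the 37 members in IP and 31 in input. Over all genes with an adjusted p in the authors' deposited tables, 0.752% in IP and 0.237% in input were under 0.05. The smallest adjusted p of a member there was 0.288 in IP and 0.639 in input. The authors' deposited table for IP gave 6 members an unadjusted p under 0.05, and the one for input gave 1. The same count over all genes was not made.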

How the data were processed

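The authors deposited raw counts per gene, made with STAR and featureCounts on mm10 per the submitters' processing notes, and DESeq2 tables with log2 fold changes and p-values per the file headers. The libraries came from a kit that does not mark strand, as paired-end reads, in a single batch, per the labels' protocols. edgeR 4.0.16 (R 4.3.3) was fitted to all genes with TMM scaling, filterByExpr and robust quasi-likelihood tests, with Benjamini-Hochberg adjustment over all genes at 0.05; this test gave every adjusted p of a gene that names no other tool. Genotypes were compared within IP and within input; IP against input and the interaction used all 22 libraries. CPM are TMM-scaled, and shares are plain. On simulated data the fits recovered 86% to 90% of genes changed by 1 on the log2 scale. False calls numbered 3 for IP over input, 15 for genotype in IP and 14 for genotype in input. Each simulation changed 100 genes by 1 and 100 by 2, far more than the genotype fits called. The changed genes were drawn above a minimum level that most tested tRNAs did not reach in IP, so the rate does not cover them.

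Animal numbers pair IP and input from the same lysate; deviations from group means correlated at 0.191 to 0.465 over 8625 genes, and 11 of 11 IP libraries correlated best with their own input.

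Nuclear copies were found by matching mitochondrial genes (blastn 2.17.0) to GENCODE vM21 transcripts, since no genome sequence was used here; a copy outside annotated transcripts would be missed. Named are every tested mRNA and rRNA, the 3 tRNAs with the most reads, the 3 members with the smallest p where none was called, up to 4 genes per nuclear list and up to 4 copies; mt-Nd3 and single low-count tRNAs were added after their values were seen. Members and lists were chosen with earlier results of these data known. The alternatives were other scalings, filters, DESeq2 1.42.0, limma-voom (limma 3.58.1), added copy reads, an animal block, and leaving out each animal or animals 1, 3, 9 and 12.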

Additional observations from a re-analysis of the deposited data

Results flagged for a closer look

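Of 84 groups of 4 to 10 libraries examined for a library far from the rest, 5 had one, and chance gives about 1 in 20. mt-Tp in mutant IP stood at 3.69 CPM in animal 11, where the next highest library had 1.83 CPM. mt-Co2 in wild-type input stood at 19.7 CPM in animal 12, with the next at 7.17 CPM. mt-Atp8 in wild-type input stood at 21.2 CPM in the same animal 12, with the next at 1.31 CPM, and in mutant input at 8.48 CPM in animal 11, with the next at 1.13 CPM. mt-Atp6 in wild-type input stood at 27.1 CPM in animal 13, with the next at 8.18 CPM. Of the 5, 4 were members of the neighbouring genes mt-Co2, mt-Atp8 and mt-Atp6, whose sequence or surroundings have copies in the nuclear genome. In mutant input animal 11 also had the highest mt-Atp6, at 80.4 CPM. The part of the copies in these values was not tested.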

How the results depend on the processing

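Over the alternatives run, 26 to 32 members of the 26 to 35 tested were called lower in IP in wild type and 26 to 30 in the mutant, where 17.9% to 29.97% and 16.1% to 28.8% of all genes tested were, and 0 members were called in either genotype comparison or the interaction. With the replicate block for the animal, 29 and 28 members were called lower in IP, and 0 in the interaction. Over all genes, DESeq2 called 83 genes in mutant against wild type in IP, 52 in input and 3 in the interaction, where edgeR called 8, 3 and 0; without animals 1, 3, 9 and 12 edgeR called 7 in input.

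The difference in mt-Rnr1 share in IP changed sign without animal 9 (-0.0236), animal 20 (-0.00232) and animals 1, 3, 9 and 12 (-0.0281). That of mt-Rnr2 changed sign without animal 1 (-0.00653), 4 (-0.00256), 9 (-0.0423), 20 (-0.0120) and animals 1, 3, 9 and 12 (-0.0517), and without replicates singly these differences ran from -0.0236 to 0.0285 and from -0.0423 to 0.0265. The cause was not tested. The log2 ratio of mt-Rnr1 to mt-Rnr2 fell short of the threshold at 0.102 without animals 1, 3, 9 and 12 and, without single animals, ran from 0.116 to 0.162; fewer animals also raise the smallest p that can be reached. Fitted folds of the 6 mRNAs with few reads moved by over 1.5 times under several alternatives, including leaving out 1 library: animal 12 for mt-Co2 and mt-Atp8, animals 1 and 13 for mt-Atp6 and 1 for mt-Co3 in wild type, and animals 2 and 11 for mt-Atp6, 11 for mt-Atp8 and 10 for mt-Co3 in the mutant. Low counts limit these genes and most tRNAs, and why the counts are low was not tested.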
